A study of Mus musculus with 48 samples.

Results

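The potassium channel gene family was examined in ribosome-bound RNA from 2 classes of nucleus accumbens neuron. Its members were all protein-coding genes whose mouse symbol starts with Kcn, except the ATP-sensitive subunit genes Kcnj8 and Kcnj11. The rule gave 92 members among the 54838 genes counted, and it used no expression value. They comprise pore-forming subunits of voltage-gated, calcium- or sodium-activated, inwardly rectifying and leak channels, together with their auxiliary subunits.

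The study used RiboTag mice, in which cells with Cre recombinase make ribosomes that carry an epitope on Rpl22, a protein of the large subunit. An antibody to that epitope then collects their polyribosomes. All mice carried Rpl22HA. The D1 libraries came from the genotype Drd1Cre x Rpl22HA, in which Cre is driven by the dopamine D1 receptor gene, and the D2 libraries from A2ACre x Rpl22HA, in which Cre is driven by Adora2a, the adenosine receptor gene that marks the neurons with the dopamine D2 receptor. Each genotype was represented by male and female mice in fentanyl abstinence or in the control condition that the labels call water abstinence, and punches were taken on day 10 of abstinence. The 8 groups held 6 libraries each, 48 in all, and each library pooled 4 mice. Driver expression is not limited to medium spiny neurons, and a pull-down carries some RNA of other cells. Ages were not given in the sources used here.

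Potassium channels let potassium leave the cell and so set the resting potential, the delay to the first spike, the shape of the spike and the spacing of spikes. Medium spiny neurons of the striatum are known for strong inward rectification, which holds them at a hyperpolarised resting potential, and for fast A-type and slow voltage-gated currents that delay firing. Channels of the GIRK type, built from Kcnj3, Kcnj5, Kcnj6 and Kcnj9 products, are opened by the G protein subunits that inhibitory receptors release, opioid receptors among them.

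Reads assigned to genes ran from 20211543 to 42584762 per library, with a median of about 27568200 in D1 and 32234300 in D2 libraries. Drd1 averaged 480 ± 54.1 CPM (counts scaled to the size of the library; SD, n = 24) in D1 and 50.1 ± 7.05 CPM in D2 libraries, and Adora2a averaged 108 ± 47.8 and 945 ± 109 CPM, in the direction of the labels. Among the genes listed as cell type markers, all 10 of D1 medium spiny neurons were higher in the D1 water libraries and all 8 tested of D2 neurons were lower there. Markers of other cells were present in both pull-downs. The summed level of 11 GABA interneuron genes ran from 795 to 1880 CPM in D1 water and from 302 to 630 CPM in D2 water libraries, that of 8 cholinergic genes from 7.67 to 21.0 and from 1.97 to 3.88 CPM, and that of 8 pallial genes from 460 to 899 and from 142 to 369 CPM. The sum of 12 vascular genes ran from 11.7 to 22.5 and from 234 to 404 CPM, and that of 12 astrocyte genes from 379 to 642 and from 606 to 1056 CPM. No gene of these lists was at 0 in every library. In a bulk pull-down, fewer cells of a type and less RNA per cell cannot be told apart.

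Among the D1 libraries, 6 stood apart: reads that overlapped more than 1 gene made up 4.93 to 6.15% of their reads, against 4.55 to 4.86% in the other 18. The split was noticed in the data. With the sexes pooled it falls evenly, with 3 fentanyl and 3 water libraries, but within each sex it does not. In males they were fentanyl replicate 1 and water replicates 2 and 3. In females they were fentanyl replicates 4 and 5 and water replicate 6. Of the 76 members tested in D1, 7 lay below all 18 others in all 6 of these libraries, beside 4.9% of all genes. Kcnj4 averaged 74.8 ± 8.70 CPM there (n = 6) and 198 ± 11.6 CPM in the others (n = 18), and Kcnab2 averaged 119 ± 14.4 and 193 ± 14.2 CPM. Kcnh3, Kcna5, Kcnip2 and Kcna1 were also among the 7, and no member lay above all others, beside 3.27% of all genes. The exons of the 7 had a median GC content of 58.0%, against 51.3% in the 69 members that overlapped, beside 56.5% and 49.1% for the same classes over all genes. D2 libraries showed no such split and had 5.19 to 5.49% of such reads. The D1 to D2 ratios of Kcnj4, Kcna5 and Kcnip2 are given both ways below, and calls that changed without these libraries are listed. Other members differed in the 6 as well, and their ratios are given with all libraries only. The mean in the 6 was 1.55 times that in the other 18 for Kcnj10 and 1.40 times for Kcnj3 and Kcnt2. It was 1.335 times for Kcnh7 and 0.65 times for Kcnk12.

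**Figure D1:**
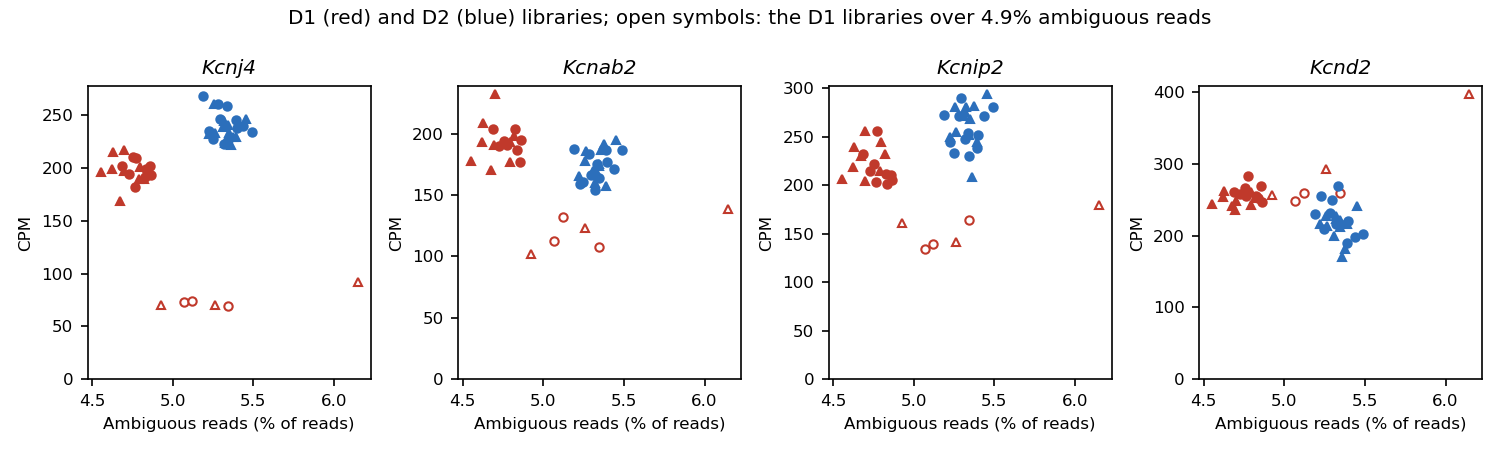
Level (CPM) of 4 members in each of the 48 libraries against the share of reads that overlap more than 1 gene (percent). Red symbols are D1 and blue D2 libraries, circles male and triangles female. The 6 open D1 symbols lie below all filled D1 symbols for Kcnj4, Kcnab2 and Kcnip2, and within or above them for Kcnd2.

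The order of the members by level per length was led by the same genes in both cell classes. RPKM, here the CPM per kilobase of exon, is used wherever genes are compared with each other. Kcnj4 (ENSMUSG00000044216, chr15:79483714-79505241, GRCm38), an inward rectifier of the Kir2 type, had the highest mean in both, at 77.5 ± 25.7 RPKM in D1 and 111 ± 5.93 RPKM in D2 libraries (SD, n = 24). Kcnip2, which encodes a calcium-binding auxiliary subunit of A-type channels, followed at 59.1 ± 10.1 and 74.9 ± 6.09 RPKM. Kcnd2, which encodes the pore-forming subunit of the A-type channel that it joins, came next at 50.9 ± 6.08 and 42.4 ± 4.37 RPKM, then Kcna1, an axonal low-threshold channel, at 38.0 ± 4.40 and 37.7 ± 2.06 RPKM. In D1 libraries the order of these leading genes depended on the libraries set apart. In the 18 others Kcnj4 stood at 91.8 ± 5.38, Kcnip2 at 64.0 ± 5.13 and Kcnd2 at 49.5 ± 2.20 RPKM, and Kcnj4 lay above Kcnip2 in all 18. In the 6 set apart Kcnj4 stood at 34.8 ± 4.04, Kcnip2 at 44.1 ± 5.09 and Kcnd2 at 55.4 ± 11.05 RPKM. The 10 highest members held 53.0% of the family's summed RPKM in D1 and 59.4% in D2 libraries. By subfamily, the 4 Kcnip genes held 15.7% in D1 and 18.05% in D2, the 13 inward rectifiers 15.6% and 19.7%, the 8 Kv1 genes 13.1% and 13.4% and the 10 silent subunits 9.47% and 7.76%. At or above 10 RPKM stood 23 members in D1 and 20 in D2 libraries.

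**Figure D2:**
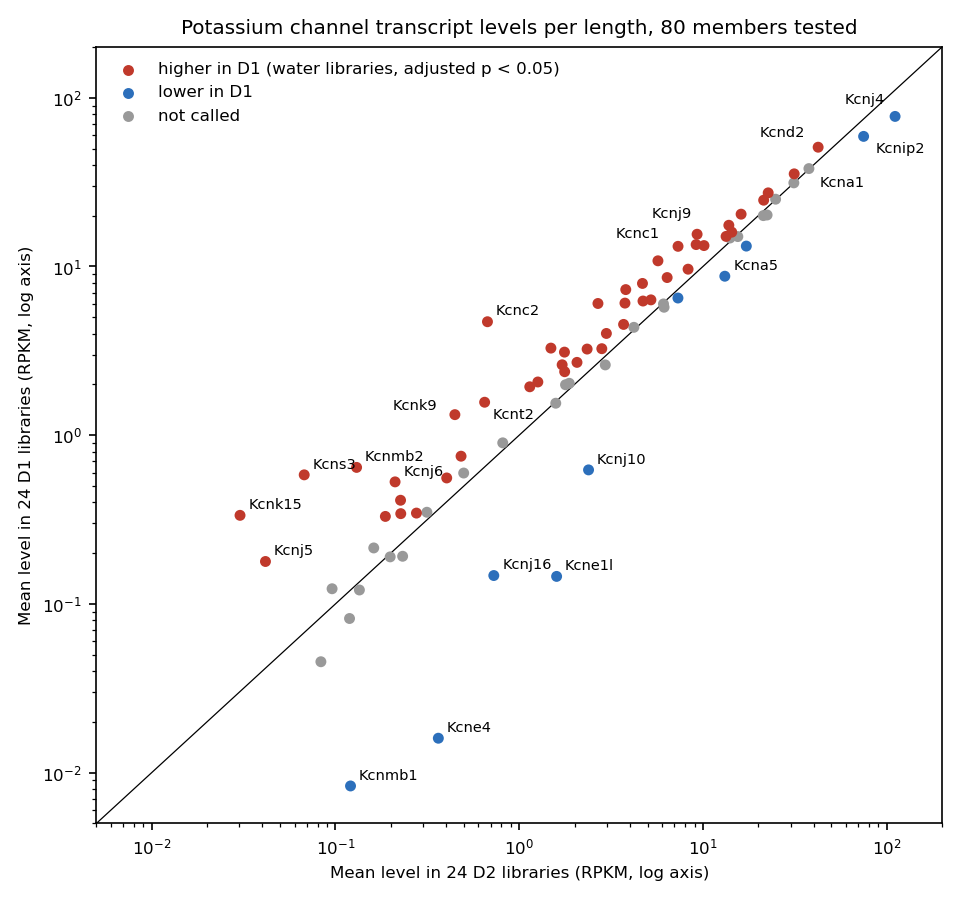
Mean level per length (RPKM) of the 80 tested members in 24 D1 against 24 D2 libraries on log axes, with the line of equality. Red points were called higher and blue points lower in D1 water libraries; Kcnj4 and Kcnip2 lie highest, Kcnc2 far above the line, and Kcnj10, Kcnj16 and Kcne1l far below it.

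At the other end, 12 members were too low to test: Kcna10, Kcna7, Kcne1, Kcne2, Kcnj1, Kcnj13, Kcnj15, Kcnk16, Kcnk18, Kcnk5, Kcnmb3 and Kcnv2. Kcne2 reached 0.553 CPM in 1 library, the highest value of any of them, and Kcna7 and Kcne1 had 0 reads in all D1 libraries and 4 reads each over the D2 libraries.

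The comparison of D1 with D2 pull-downs asked which potassium channel transcripts differ between the classes of neuron. In water libraries, 46 of the 80 tested members were higher in D1, 10 were lower and 24 were not called (edgeR quasi-likelihood test, Benjamini-Hochberg adjusted p under 0.05 over 18270 genes). Over all genes, 26.8% were called higher and 26.6% lower. The median log2 ratio of the members was 0.30, beside -0.01 for all genes, and 37 tested sodium, calcium and HCN channel genes gave 16 higher and 6 lower. In the fentanyl libraries, which share no sample with the water libraries, 45 members were higher and 11 lower, beside 26.9% and 27.2% of all genes. In both treatments, 44 members were higher and 9 were lower, beside 22.9% and 22.1% of all genes, and 0 changed direction. Of those tested, Kcne1l, Kcne4, Kcnmb1 and Kcnq1 passed the count filter through D2 libraries only. Kcnj5, Kcnk15 and Kcns3 passed it through D1 libraries only. A member that enters in this way can hardly be called in the other direction. Only part of the higher calls held when libraries were scaled by 18 pan-neuronal genes, whose sum ran from 14178 to 15914 CPM in D1 water and from 11713 to 12791 CPM in D2 water libraries. That scaling moved the median of all genes from -0.01 to -0.32 and left 25 members higher, beside 9.31% of all genes, and 25 lower, beside 57.9%, in water libraries. In fentanyl libraries it left 20 higher, beside 10.1%, and 27 lower, beside 56.1%. Of the 46, 25 remained higher in water libraries. The 10 lower members stayed lower under it, as did all 4858 genes called lower, since it lowers the ratios of all genes. Unless said otherwise, values below are from the usual (TMM) scaling in water libraries, with 12 libraries a group, and a member named as higher or lower without mention of a scaling was called so under both. In fentanyl libraries the same held except for Kcnab3, Kcng3, Kcnk7 and Kcnq3, which were higher with TMM scaling only, and Kcnip1.

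**Figure D3:**
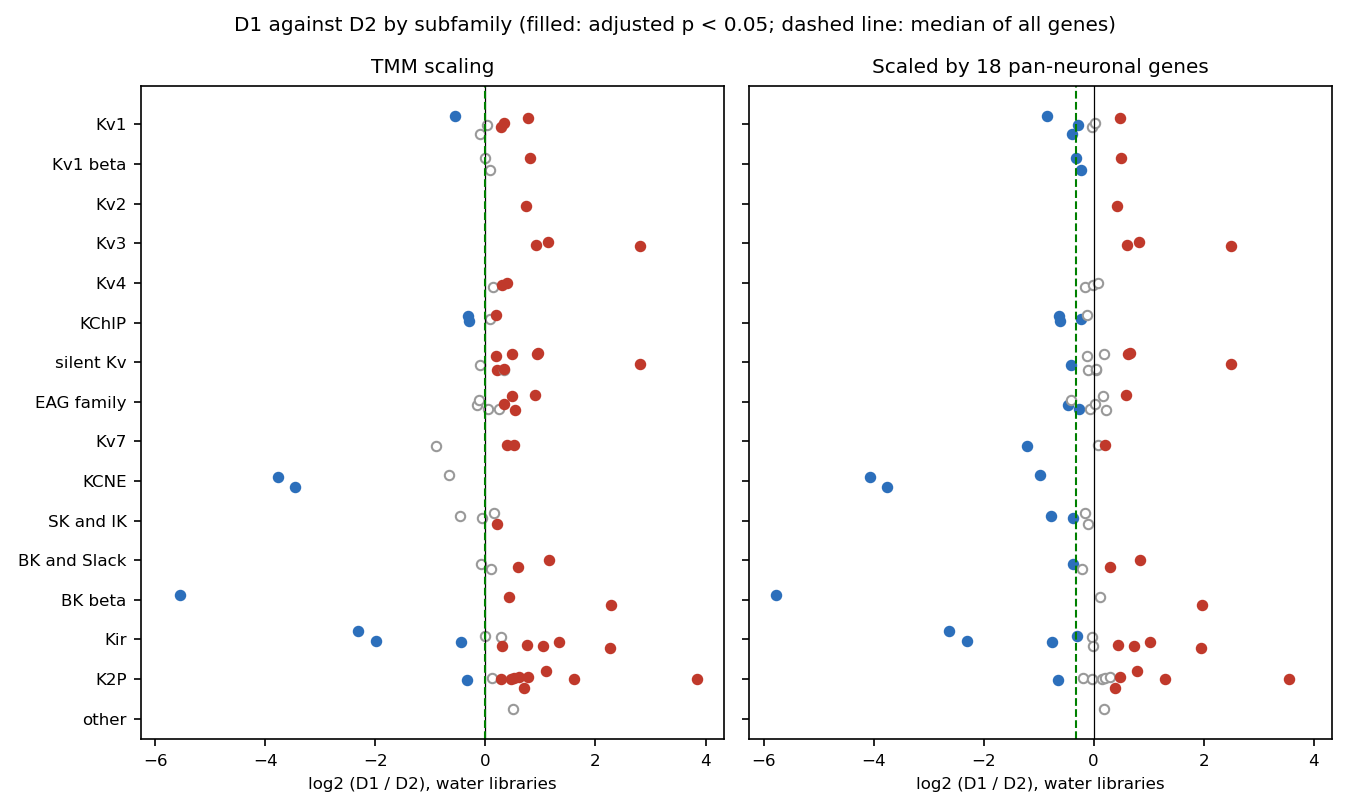
Log2 ratio of D1 to D2 in water libraries for 76 of the 80 tested members by subfamily, under TMM scaling (left) and scaling by 18 pan-neuronal genes (right). Filled points passed adjusted p under 0.05, red higher and blue lower; the dashed line marks the median of all genes, -0.01 on the left and -0.32 on the right. The Kv3 points shown lie to the right of 0 in both panels.

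Of the Kv3 genes, Kcnc1, Kcnc2 and Kcnc4 were higher in D1. Kv3 channels close fast and allow repeated short spikes, and they are known for fast-spiking interneurons. Kcnc2 (ENSMUSG00000035681, chr10:112271121-112467024) ran from 21.9 through a median of 35.3 to 44.4 CPM in D1 and from 3.61 through 4.47 to 6.65 CPM in D2 libraries. Every D1 library thus lay above every D2 library. Its log2 ratio was 2.80 ± 0.13 (SE), a mean of 34.1 against 4.92 CPM (edgeR adjusted p = 8.84e-24). Kcnc1 ran from 114 through 130 to 140 CPM in D1 and from 64.2 through 67.3 to 74.8 CPM in D2 libraries. These ranges did not overlap either, and the log2 ratio was 0.91 ± 0.05 (edgeR adjusted p = 1.89e-22). Kcnc4 had a log2 ratio of 1.13 ± 0.16 with overlapping ranges, 6.63 to 15.8 and 3.23 to 8.10 CPM. The interneuron sums given above moved the same way, with 9 of 11 GABA interneuron genes and 7 of 8 cholinergic genes higher in D1 and 1 and 0 lower, and their part in the Kv3 values was not tested.

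**Figure D4:**
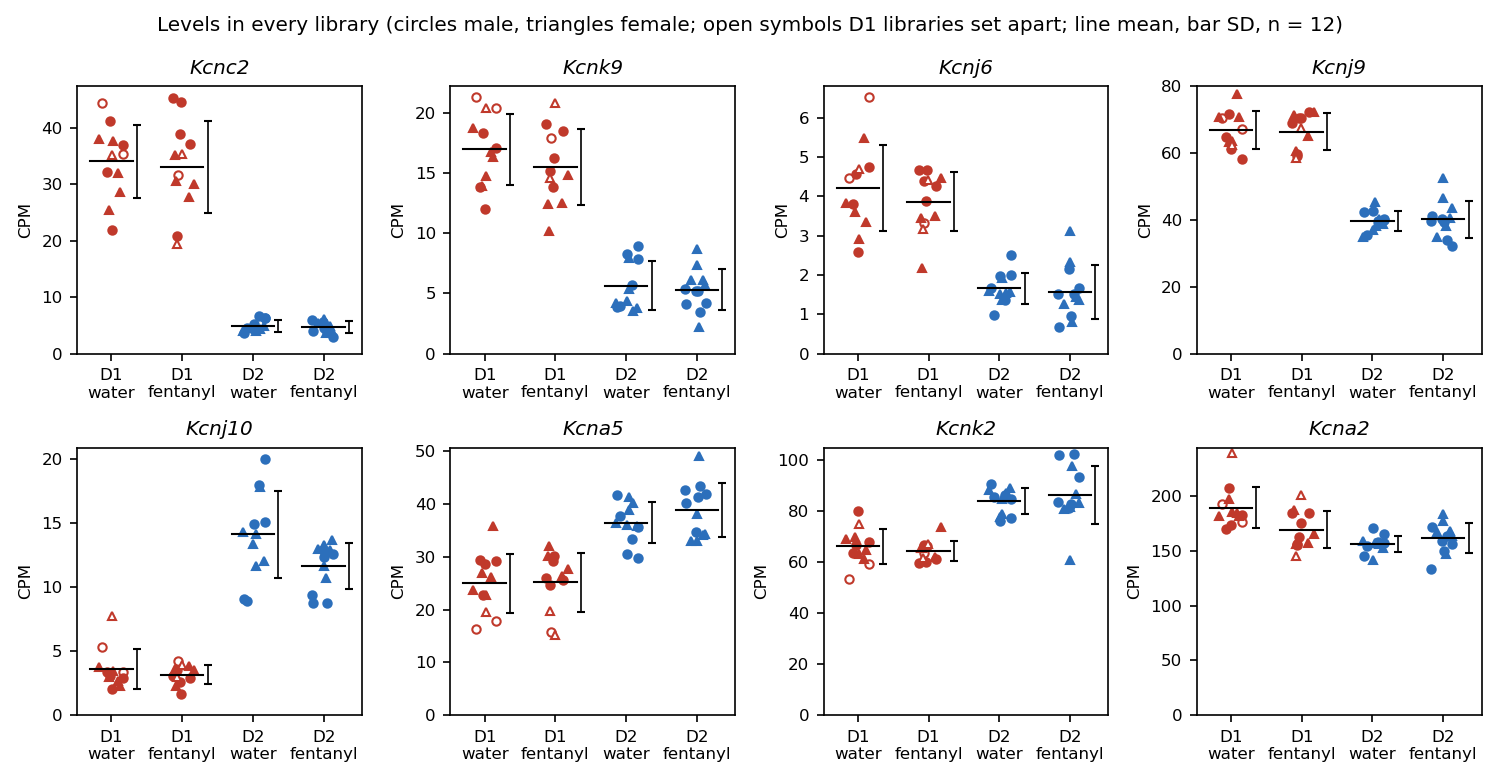
Level (CPM) of 8 members in every library by cell class and treatment, 12 libraries each; the line is the mean and the bar the SD. For Kcnc2, Kcnk9, Kcnj6 and Kcnj9 the D1 water libraries all lie above the D2 water libraries, and for Kcnj10 all below; water and fentanyl columns overlap in all 8 panels.

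Of the Kv1 genes, whose products act at axons and nerve terminals, Kcna6 was higher (38.0 through 47.6 to 63.0 CPM in D1, 22.2 through 28.1 to 35.7 CPM in D2), with no overlap and a log2 ratio of 0.78 ± 0.08. Of its exon bases, 39.6% overlap another gene, so its counts are uncertain. Kcna5 was lower, from 16.3 through 24.9 to 35.9 CPM in D1 and from 29.8 through 36.3 to 41.7 CPM in D2, a log2 ratio of -0.55 ± 0.11 that was -0.41 without the libraries set apart. Kcna2 and Kcna3 were called higher by 0.28 and 0.33 with TMM scaling only, and Kcna1 (0.03) and Kcna4 (-0.09) were not called. Kcna1, Kcna4, Kcnab1 and Kcnab2 were called lower with the pan-neuronal scaling. Of the cytoplasmic beta subunits, which bind Kv1 channels, Kcnab3 was higher at 0.80 ± 0.14, from 13.3 through 18.2 to 23.8 CPM against 7.13 through 10.6 to 14.7 CPM.

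The Kv2 genes encode the slow delayed rectifiers of cell bodies. Kcnb2 was higher, at a mean of 30.9 ± 6.18 against 18.6 ± 3.70 CPM and a log2 ratio of 0.73 ± 0.10. The silent subunits form no channel alone and alter Kv2 channels. With TMM scaling, 7 of 9 tested were higher and 0 lower, beside 26.8% and 26.6% of all genes. Of the 7, Kcng1, Kcng3 and Kcns3 were also higher with pan-neuronal scaling. Kcng1 was the clearest by its ranges, 41.0 through 48.3 to 57.3 CPM against 21.6 through 25.1 to 27.3 CPM, a log2 ratio of 0.94 ± 0.06 (edgeR adjusted p = 2.29e-17). Kcns3 was low in both, at 1.64 ± 0.68 against 0.234 ± 0.170 CPM, with a log2 ratio of 2.80 ± 0.29. It passed the count filter through D1 libraries only, with 171 reads over the 24 D2 libraries. Kcnf1, Kcns2, Kcnv1 and Kcng2 were higher by 0.19 to 0.49 with TMM scaling only.

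The A-type channels pass the transient current that delays the first spike. Kcnd2 and Kcnd3 were higher by 0.29 and 0.38 with TMM scaling and were not called with pan-neuronal scaling, where they stood at -0.01 and 0.08. Kcnip2 ran from 134 through 217 to 256 CPM in D1 and from 230 through 263 to 282 CPM in D2 libraries, with a log2 ratio of -0.32 ± 0.08 (edgeR adjusted p = 0.000847). Without the libraries set apart that ratio was -0.19 (adjusted p = 0.000611). Kcnip1 was lower by 0.31 in water libraries and was not called in fentanyl libraries, at -0.03; a small gene, Kcnmb1, lies within its span. Kcnip3 was higher by 0.19 with TMM scaling only, and Kcnip4 was not called.

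In the EAG family, voltage-gated channels that include the EAG and ERG types, 4 of 8 were higher and 0 lower with TMM scaling. All genes gave 26.8% and 26.6%. With pan-neuronal scaling Kcnh2 and Kcnh3 were called lower, as were 57.9% of all genes. Kcnh7 was higher under both scalings, from 32.4 through 45.6 to 69.0 CPM against 21.9 through 26.4 to 38.5 CPM, a log2 ratio of 0.90 ± 0.11. Kcnh1, Kcnh5 and Kcnh6 were higher by 0.34 to 0.53 with TMM scaling only. Of the Kv7 genes, whose products carry the M-current that restrains repeated firing, Kcnq3 ran from 109 through 125 to 213 CPM against 74.4 through 93.2 to 102 CPM. Its log2 ratio was 0.51 ± 0.08, and the ranges did not overlap. Kcnq5 was higher by 0.39 with TMM scaling only.

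Calcium- and sodium-activated channels followed the same pattern of a few clear differences. Kcnma1, the pore of the BK channel that shortens spikes, ran from 197 through 223 to 300 CPM in D1 and from 133 through 149 to 174 CPM in D2 libraries, with no overlap and a log2 ratio of 0.60 ± 0.06. Kcnt2, a sodium-activated channel, ran from 7.14 through 10.2 to 15.7 CPM against 3.44 through 4.57 to 6.23 CPM, a log2 ratio of 1.16 ± 0.13. Its relative Kcnt1 did not pass in water libraries, at -0.08. The BK beta subunits went in opposite directions. Kcnmb2, whose product makes BK currents inactivate, was higher, 1.22 through 2.06 to 3.74 CPM against 0.200 through 0.422 to 0.736 CPM, with a log2 ratio of 2.28 ± 0.23. Kcnmb1, the smooth muscle subunit, was lower, at 0.0157 ± 0.0301 against 0.581 ± 0.301 CPM, and most D1 libraries had few reads or none. Kcnmb4, the neuronal beta subunit, was higher by 0.42 with TMM scaling only. Of the small-conductance genes, which set the afterhyperpolarisation, Kcnn3 was higher by 0.21 with TMM scaling only and Kcnn1, Kcnn2 and Kcnn4 did not pass.

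Of the inward rectifiers, all 4 GIRK genes were higher in D1, though Kcnj5 passed the count filter through D1 libraries only. Kcnj9 ran from 58.1 through 65.9 to 77.7 CPM against 34.8 through 39.7 to 45.2 CPM, with no overlap and a log2 ratio of 0.76 ± 0.06 (edgeR adjusted p = 3.48e-16). Kcnj6 ran from 2.59 through 4.14 to 6.51 CPM against 0.980 through 1.58 to 2.51 CPM, again with no overlap, and had a log2 ratio of 1.34 ± 0.17. Kcnj3 had a log2 ratio of 1.04 ± 0.13 with overlapping ranges, 23.4 to 61.4 and 14.3 to 28.2 CPM. Exons of other genes overlap 31.1% of its own. Kcnj5 was low in both, at 0.881 ± 0.312 against 0.184 ± 0.153 CPM, a log2 ratio of 2.26 ± 0.41. It had 156 reads over the 24 D2 libraries.

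Of the Kir2 genes, which carry the strong rectification of medium spiny neurons, Kcnj4 was lower in D1. It ran from 72.8 through 198 to 217 CPM in D1 and from 223 through 234 to 261 CPM in D2 water libraries, so that no D1 library reached the lowest D2 library. The log2 ratio was -0.45 ± 0.16 (edgeR adjusted p = 0.017), and without the libraries set apart it was -0.21 ± 0.03 (adjusted p = 9.01e-07). In fentanyl libraries the same pair of values was -0.59 and -0.34. The 18 other D1 libraries ran from 169 to 217 CPM over both treatments, below the lowest D2 library at 222 CPM. Kcnj2 did not pass, at 33.5 ± 4.66 against 33.6 ± 4.39 CPM, and Kcnj12 was higher by 0.30 with TMM scaling only.

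Kcnj10, the main potassium-buffering channel of astrocytes, and its partner Kcnj16 were lower in D1. Kcnj10 ran from 2.02 through 3.20 to 7.74 CPM against 8.93 through 14.2 to 19.999 CPM, with no overlap and a log2 ratio of -1.997 ± 0.16 (edgeR adjusted p = 2.41e-15). Kcnj16 ran from 0.321 through 0.522 to 0.973 CPM against 1.63 through 2.88 to 5.23 CPM, a log2 ratio of -2.31 ± 0.25. Among the astrocyte genes 10 of 12 were lower in D1 as well, and 0 were higher. Their part in these values was not tested. Kcne1l, a single-pass auxiliary subunit, was lower by more, 0.0338 through 0.226 to 0.535 CPM against 1.33 through 2.51 to 3.69 CPM, a log2 ratio of -3.46 ± 0.30. Kcne4, another of that type, stood at 0.0617 ± 0.0814 against 0.920 ± 0.350 CPM. The vascular genes, 11 of 12 lower in D1 and 0 higher, moved the same way as Kcne4, Kcne1l and Kcnmb1, and their part was not tested either.

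Kcnj9 and Kcnj10 are neighbours that went in opposite directions, so the starts of both are shown. They lie head to head on chromosome 1, Kcnj9 at chr1:172320501-172329318 on the minus strand and Kcnj10 at chr1:172341210-172374085 on the plus strand, 11891 bases apart with no coding gene between them. The third sequence belongs to Kcnj4, the highest member per length and the one that the libraries set apart lowered most. Each runs 5′ to 3′ over 300 bases, from 250 before the RefSeq start to 50 after it on the gene's strand (GRCm38.p6), and the capitals mark CG pairs. The windows are chr1:172329273-172329572 for Kcnj9, chr1:172340960-172341259 for Kcnj10 and chr15:79505192-79505491 for Kcnj4.
Kcnj9: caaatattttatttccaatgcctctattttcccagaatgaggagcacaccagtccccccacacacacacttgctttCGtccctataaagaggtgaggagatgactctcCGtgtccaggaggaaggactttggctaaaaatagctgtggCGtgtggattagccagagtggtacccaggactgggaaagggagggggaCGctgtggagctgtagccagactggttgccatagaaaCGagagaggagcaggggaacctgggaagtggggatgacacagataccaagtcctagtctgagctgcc
Kcnj10: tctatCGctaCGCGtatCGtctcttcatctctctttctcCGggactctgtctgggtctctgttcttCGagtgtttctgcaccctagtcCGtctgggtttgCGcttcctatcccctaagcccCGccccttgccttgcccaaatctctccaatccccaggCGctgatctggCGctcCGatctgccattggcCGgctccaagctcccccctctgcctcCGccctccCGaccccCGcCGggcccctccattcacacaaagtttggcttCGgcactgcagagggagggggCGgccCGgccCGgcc
Kcnj4: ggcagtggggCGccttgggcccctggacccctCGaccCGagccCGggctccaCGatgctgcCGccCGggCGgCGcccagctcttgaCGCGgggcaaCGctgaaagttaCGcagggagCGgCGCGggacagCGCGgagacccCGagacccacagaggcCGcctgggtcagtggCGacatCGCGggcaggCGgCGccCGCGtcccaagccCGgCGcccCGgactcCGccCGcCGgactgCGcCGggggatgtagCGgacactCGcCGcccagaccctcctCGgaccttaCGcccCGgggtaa
The window of Kcnj9 holds 5 CG pairs at 52.3% GC, that of Kcnj10 holds 21 at 63.7%, and that of Kcnj4 holds 41 at 76.0%. The letters TATAAA occur in the Kcnj9 window and not in the other two on either strand, and the GC box letters GGGCGG, on either strand, occur in the Kcnj10 and Kcnj4 windows and not in that of Kcnj9. RefSeq gave 93 promoter windows for 68 of the 92 members. The GC box letters were in 48.4% of them and in 35.7% of all 32851 windows, TATAAA in 5.38% and 13.6%, and the CRE letters TGACGTCA in 0% and 1.79%. The median GC content was 58.0% against 52.7%.

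Among the other neighbours within 200 kb, some pairs were called in the same direction and others were not. Kcna3 (0.33) and Kcna2 (0.28), 63.1 kb apart on chromosome 3, were both called higher with TMM scaling, and Kcnip1 (-0.31) and Kcnmb1, which overlap on chromosome 11, were both lower. On chromosome 6, Kcna5 (-0.55), Kcna1 (0.03) and Kcna6 (0.78) lie in a row, and on chromosome 11, Kcnj16 (-2.31) lies 38.2 kb from Kcnj2 (0.00), all as log2 ratios of D1 to D2 in water libraries.

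The K2P group includes leak channels that help set the resting conductance. With TMM scaling, 9 of its 11 tested members were higher in D1 and 1 was lower. All genes gave 26.8% higher and 26.6% lower. Kcnk7, Kcnk9, Kcnk12, Kcnk13 and Kcnk15 were also higher with pan-neuronal scaling. Kcnk9, an acid-sensitive channel, ran from 12.1 through 17.0 to 21.3 CPM against 3.54 through 4.86 to 8.96 CPM, with no overlap and a log2 ratio of 1.60 ± 0.15 (edgeR adjusted p = 1.04e-12). Kcnk12 had a log2 ratio of 1.10 ± 0.16 at 11.9 ± 2.29 against 5.57 ± 1.53 CPM, and its relative Kcnk13 one of 0.70 ± 0.11. Kcnk15 was below 1 CPM in the mean of both, at 0.929 ± 0.823 against 0.0627 ± 0.0808 CPM. It passed the count filter through D1 libraries only, with 49 reads over the 24 D2 libraries. Kcnk1, Kcnk3, Kcnk4 and Kcnk10 were higher by 0.28 to 0.60 with TMM scaling only. Kcnk2, a mechanically gated channel, was the one that was lower, from 53.5 through 65.7 to 79.9 CPM against 75.9 through 85.2 to 90.7 CPM, a log2 ratio of -0.34 ± 0.06.

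Among the 24 members not called in water libraries were Kcna1, Kcna4, Kcnab1, Kcnab2, Kcnd1, Kcne3, Kcng4, Kcnh2, Kcnh3, Kcnh4, Kcnh8, Kcnip4, Kcnj14, Kcnj2, Kcnk6, Kcnn1, Kcnn2, Kcnn4, Kcnq1, Kcnrg, Kcns1, Kcnt1 and Kcnu1. With pan-neuronal scaling, 15 of them were called lower and 0 higher. Such a change from not called to lower befell 18.75% of the 80 members, beside 28.2% of all genes. Of those named, Kcnab1, Kcna1, Kcnab2 and Kcnh3 averaged over 100 CPM in both classes, from 117 ± 24.2 CPM for Kcnh3 in D1 to 212 ± 17.99 CPM for Kcnab1 in D2.

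Over the whole family, 13 members had all 12 D1 water libraries above all 12 D2 water libraries, beside 6.64% of all genes, and 6 had them all below, beside 6.11%. The 13 were Kcna6, Kcnc1, Kcnc2, Kcng1, Kcnj6, Kcnj9, Kcnk9, Kcnma1, Kcnmb2, Kcnq3, Kcnq5, Kcnt2 and Kcnv1, and the 6 were Kcne1l, Kcne4, Kcnj10, Kcnj16, Kcnj4 and Kcnmb1. Of the 6, Kcne1l, Kcne4 and Kcnmb1 passed the filter through D2 libraries only, with 142, 28 and 23 reads over the 24 D1 libraries. Fentanyl libraries gave 13 above, beside 6.14%, and 5 below, beside 6.03%, but the members were not all the same. There the ranges of Kcna6, Kcnj6, Kcnma1, Kcnq3, Kcnj16 and Kcnmb1 overlapped. Kcnb2, Kcnh1, Kcns2 and Kcns3 lay all above instead, and Kcna5 all below. These positions were read at TMM scaling. Calls differed between treatments for 6 members. Kcnk4, Kcna2 and Kcnip1 were called in water libraries only and Kcnu1, Kcnn4 and Kcnt1 in fentanyl libraries only, and the difference between treatments itself was not called for any of the 6 (edgeR adjusted p = 1.00 for each). Without the libraries set apart, all 56 calls in water libraries held with TMM scaling, and Kcna1, Kcnab2 and Kcnh4 were added as higher with that scaling, while in fentanyl libraries Kcng3, Kcnn4, Kcnt1 and Kcnu1 lost their calls and Kcnh2 gained one.

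Of 20 genes whose products bind or place potassium channels, 18 were tested. In water libraries 8 were higher in D1 and 0 lower with TMM scaling, beside 26.8% and 26.6% of all genes. Lrrc55, a BK gamma subunit, was higher by 1.02, Adam22 and Adam11 by 0.61 and 0.53, and Ank3, which anchors channels at the axon initial segment, by 0.48. Dpp6 and Dpp10, the transmembrane partners of A-type channels, stood at -0.01 and -0.06 and were not called.

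Fentanyl abstinence was compared with water within each cell class. No member was called in D1 (76 tested) or in D2 libraries (77 tested), with edgeR, DESeq2 or limma voom, and neither was any gene of the whole table with edgeR (0% of 16782 and of 17706 genes), while DESeq2 called 3 of all genes in D1 and 0 in D2. At an unadjusted p under 0.05 there were 2 members in D1, beside 3.81% of all genes, and 3 in D2, beside 4.42%. The 95% interval lay within a log2 ratio of -1 to 1 for 73 of 76 members in D1 and for 74 of 77 in D2, and within -0.5 to 0.5 for 55 and 62. The exceptions at the wider limit were Kcne3, Kcnk15 and Kcnrg in D1 and Kcng4, Kcnj14 and Kcnq1 in D2, all of low level. In D1, 52 of 76 members had a log2 ratio below 0, beside 50.3% of all genes, with a median of -0.04.

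The smallest p in D1 belonged to Kcna2, an axonal low-threshold channel. It ran from 170 through 184 to 239 CPM in water and from 146 through 164 to 201 CPM in fentanyl libraries of D1, and from 142 through 157 to 171 CPM in water and from 133 through 164 to 184 CPM in fentanyl libraries of D2. The ranges overlapped in both classes. The lowest D1 value, 146 CPM, and the highest, 239 CPM, came from libraries set apart for their ambiguous reads. In the other D1 libraries Kcna2 ran from 156 to 208 CPM over both treatments, and its ratios here are from all libraries. Its log2 ratio was -0.16 in D1 (95% interval -0.27 to -0.04, unadjusted p = 0.00955, edgeR adjusted p = 1.00). The difference between the response in D1 and in D2 was -0.21 (unadjusted p = 0.00468, adjusted p = 1.00), the smallest p of the 80 members tested for it. Of these, 5 were under 0.05 unadjusted, beside 4.52% of all genes, and 0 were called by edgeR, DESeq2 or limma voom. Kcnip1 stood at 0.16 in D1 (unadjusted p = 0.0708). In D2, Kcnj10 stood at -0.28 (95% interval -0.51 to -0.05, unadjusted p = 0.0207), Kcnb2 at -0.22 (unadjusted p = 0.0257), Kcnh4 at 0.17 and Kcnd3 at 0.12, all with an edgeR adjusted p of 1.00. The astrocyte sums of D2 libraries were 606 to 1056 CPM in water and 568 to 961 CPM in fentanyl, and their part in the Kcnj10 value was not tested. For the GIRK genes, log2 ratios in D1 ran from -0.20 for Kcnj3 (95% interval -0.47 to 0.07) to -0.01 for Kcnj9. All 10 inward rectifiers tested in D1 had ratios below 0, and none was called. Most members of the whole family were below 0 in D1 too, as given above beside the share of all genes. In D2, 5 of the 9 inward rectifiers tested were below 0.

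**Figure D5:**
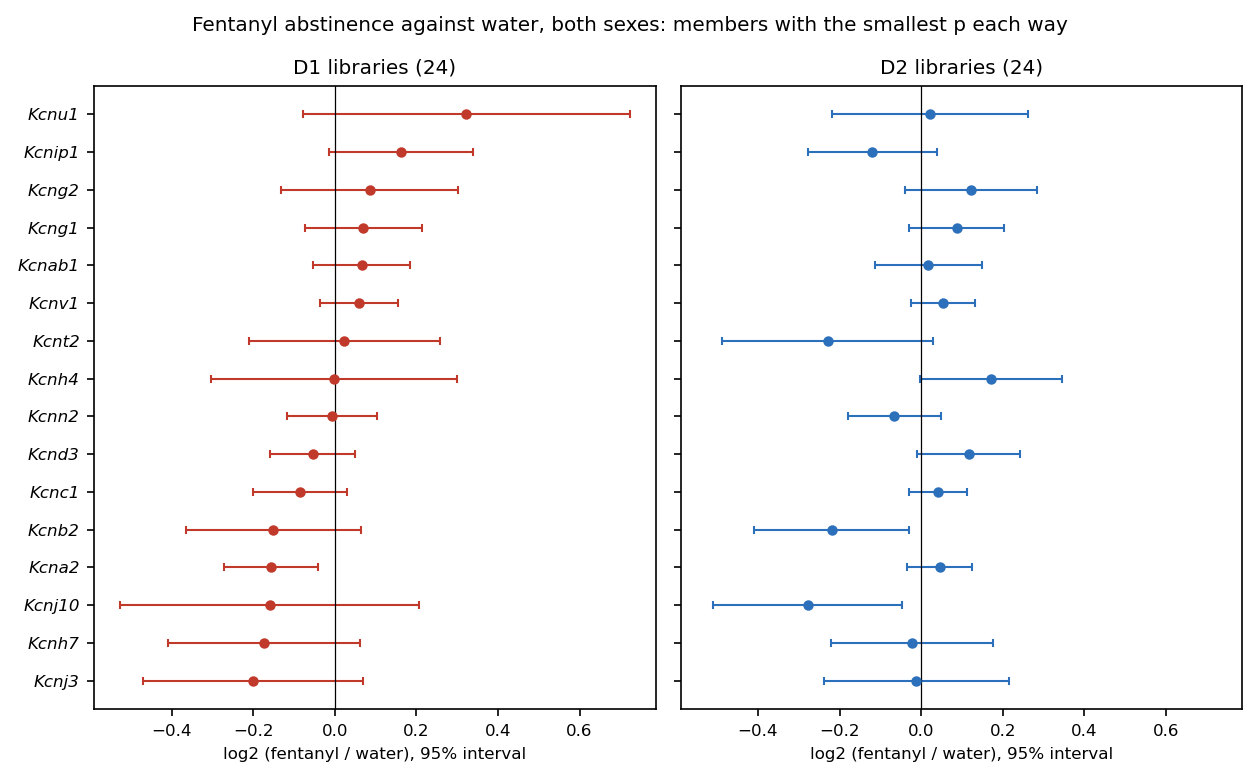
Log2 ratio of fentanyl to water with its 95% interval over both sexes, in 24 D1 (left) and 24 D2 libraries (right), for members among those with the smallest p in each direction in either class. Kcna2 lies below 0 in D1 at -0.16 and its interval spans 0 in D2; no member passed adjustment over all genes.

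Within each sex the count of called members was 0 in every comparison with edgeR, DESeq2 and limma voom. Unadjusted p fell under 0.05 for 0 of 76 members in D1 males (2.76% of all genes), 8 of 76 in D1 females (5.74%), 6 of 77 in D2 males (6.97%) and 5 of 77 in D2 females (4.73%). The difference between the sexes gave 2 of 76 in D1 (4.02%) and 11 of 77 in D2 (8.23%), none called. These D1 counts are from all libraries, and those set apart were uneven between treatments within each sex. In D2 males Kcnt2 ran from 4.23 through 4.98 to 5.94 CPM in water and from 2.75 through 3.31 to 4.49 CPM in fentanyl libraries, overlapping ranges with a log2 ratio of -0.53 (unadjusted p = 0.0063, edgeR adjusted p = 0.687). In D2 females Kcnip1 ran from 44.0 through 52.6 to 62.9 CPM and from 37.7 through 39.9 to 51.8 CPM, a log2 ratio of -0.35 (unadjusted p = 0.00351, edgeR adjusted p = 0.854). Kcnma1 had the smallest p for a difference between sexes in D2. Males ran from 147 through 168 to 174 CPM in water and from 137 through 151 to 166 CPM in fentanyl libraries, and females from 133 through 147 to 157 and from 137 through 160 to 184 CPM. The ranges overlapped in both sexes, and the difference was -0.27 (male minus female, unadjusted p = 0.00531, edgeR adjusted p = 0.577).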

How the data were processed

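Gene counts were deposited by the authors, 1 table of raw read counts per library over exons of 54838 Ensembl genes. The tools named in the submitters' processing notes are TopHat2 2.0.8, with the build GRCm38, and HTSeq. The latter's version and strand setting are not given in the sources used here. Per the labels' protocols, each library was made with Smart-Seq v4 from 10 ng of RNA. Such reads carry no molecular identifiers and no strand, so reads of overlapping genes cannot be told apart. Standard errors and intervals were derived from the log2 ratio and the quasi-likelihood F statistic of each edgeR test. They include the spread between libraries. The 5 summary lines were left out of library sizes and tests. They held 23.1 to 32.6% of reads in D1 and 17.7 to 22.2% in D2 libraries. Reads that met no counted exon, whether inside or outside a gene, made up 11.0 to 17.5% and 6.26 to 10.0%. Reads without a unique alignment made up 7.14 to 9.81% and 5.44 to 6.95%. None of these ranges overlapped between the classes, and their part in the comparison of D1 with D2 was not tested.

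Symbols, exon lengths and coordinates came from GENCODE M21 (GRCm38), which matched 54809 of the gene IDs. The members and gene lists were chosen with earlier results of these data known. Full statistics were given for members of at least 2 CPM in either class with the largest ratios between D1 and D2, for the smallest p in each fentanyl comparison, and for the highest member of each subfamily. Some members that these choices covered are not reported here, and family-wide counts include them. Genes were filtered with filterByExpr (minimum count 10, total 15), scaled by TMM and tested with edgeR 4.0.16 (R 4.3.3) by quasi-likelihood, over 48 libraries for D1 against D2 and over the 24 libraries of a class for fentanyl. CPM were computed with TMM-scaled library sizes. Alternatives used DESeq2 1.42.0, limma 3.58.1, other scalings, no filter and a replicate block. The edgeR fits were also run on counts simulated from their own estimates of spread. That run checks the code and not whether the model suits these libraries. No pair of replicates agreed within sampling noise (120 pairs compared). The labels call replicates biological, and each library pools mice.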

Additional observations from a re-analysis of the deposited data

Results flagged for a closer look

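Of the 320 sets of 6 libraries examined for the 40 members described in full, 32 had 1 library far from its group: its gap to the nearest value, divided by the range of the group, exceeded 0.625. Chance gives about 1 in 20 such cases. Of these values, 13 belong to the D1 libraries set apart for their ambiguous reads. All values are CPM and no cause was tested.

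Among the libraries set apart, the values were these. The D1 female fentanyl replicate 5 had Kcnb2 at 31.1 (above the others' 24.2 to 25.2), Kcnd2 at 293 (above the others' 241 to 261), Kcnh7 at 64 (above the others' 33.2 to 42.1) and Kcnj3 at 50.2 (above the others' 25.4 to 33.1). The D1 female water replicate 6 had Kcna2 at 239 (above the others' 182 to 198), Kcnd2 at 397 (above the others' 236 to 262), Kcnj10 at 7.74 (above the others' 2.28 to 3.78), Kcnj4 at 92.2 (below the others' 196 to 217), Kcnk12 at 6.3 (below the others' 11.7 to 13.9) and Kcnma1 at 299.9 (above the others' 207 to 239). The D1 male fentanyl replicate 1 had Kcnab2 at 107 (below the others' 177 to 204), Kcnip2 at 164 (below the others' 202 to 212) and Kcnj4 at 69.6 (below the others' 182 to 202).

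Among the remaining libraries, the values were as follows. The D1 female fentanyl replicate 6 had Kcnn3 at 30.5 (below the others' 34.9 to 37.2) and Kcnv1 at 80.02 (below the others' 83.5 to 84.3). The D1 male fentanyl replicate 4 had Kcne1l at 0.657 (above the others' 0.0321 to 0.253). The D1 male fentanyl replicate 5 had Kcnab3 at 33.1 (above the others' 12.7 to 19.4), Kcnb2 at 45.7 (above the others' 22.8 to 29.7), Kcnd3 at 52.3 (above the others' 41 to 44.9) and Kcnj16 at 1.01 (above the others' 0.225 to 0.498). The D1 male water replicate 1 had Kcnab1 at 259.7 (above the others' 193 to 213) and Kcnh4 at 11.8 (above the others' 6.85 to 8.67). The D2 female fentanyl replicate 1 had Kcna5 at 49 (above the others' 32.9 to 38.1) and Kcnh3 at 149 (above the others' 115 to 125). The D2 female fentanyl replicate 5 had Kcnf1 at 141 (above the others' 102 to 115) and Kcnv1 at 73 (above the others' 65.6 to 68.2). The D2 female fentanyl replicate 6 had Kcnip1 at 51.8 (above the others' 37.7 to 41.3). The D2 female water replicate 6 had Kcnh4 at 5.1 (below the others' 6.8 to 7.12). The D2 male fentanyl replicate 1 had Kcnu1 at 2.43 (above the others' 1.24 to 1.61). The D2 male fentanyl replicate 3 had Kcna5 at 34.6 (below the others' 40.3 to 43.5) and Kcnh7 at 31.5 (above the others' 19 to 23.6). The D2 male water replicate 4 had Kcnh4 at 7.69 (above the others' 6.12 to 6.55).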

How the results depend on the processing

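The counts of members called between D1 and D2 stayed within 1.5 times of the reported counts under DESeq2, RLE scaling, limma voom with library weights, no filter on low counts, a fit to only the 24 libraries of the treatment, and without the D1 libraries set apart, an alternative chosen after seeing the data. They moved under pan-neuronal scaling, to 25 higher and 25 lower in water and to 20 higher and 27 lower in fentanyl libraries, where all genes gave 9.31% higher and 57.9% lower in water. That scaling divides each library by genes that were themselves mostly higher in D1, 15 of 18 in water libraries. With the replicate block, 45 members were higher and 10 lower in water, 45 and 11 in fentanyl, and 0 were called in any fentanyl comparison. Replicate numbers showed no clear pairing between groups of the same sex. Over 6 same-numbered pairs, the median correlation of the libraries' deviations reached at most 0.0359 in 8 sets, and the highest single pair reached 0.1327. At most 1 library of 6 correlated best with its own number, and the block changed no other call. These values cannot tell whether same-numbered libraries were prepared together. The count of members called for fentanyl was 0 under every alternative run. For members described in full because of a comparison, all 346 alternative values run for that comparison kept their direction and their side of the threshold. Pan-neuronal scaling entered them for 20 called members, at least 2 CPM in D1 or D2, with the largest ratios each way. That scaling was fitted to all tested genes, and 21 other members lost their higher call in water libraries under it. Members below 1 CPM rest on few reads, and the intervals of those named in the report as exceptions reach past a log2 ratio of 1 in size, so changes of that size lie within those intervals.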
